A study of Homo sapiens with 6 samples.

Results

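ATF4, a group of bZIP factors that it pairs with or that act beside it, and the regulators that feed back on it were followed in K562 cells with and without hyperoside. The 10 genes were taken by symbol from the deposited table of 24960 genes, and they are the bZIP factors ATF4, ATF5, ATF3, DDIT3, CEBPB and CEBPG together with the regulators TRIB3, SESN2, DDIT4 and NUPR1. All 10 were found in the table and all 10 passed the filter on low counts. K562 is an established CML cell line, and the study sequenced 3 control libraries and 3 libraries from cells given hyperoside (2 mM), a plant flavonol glycoside, for a time that is not given in the sources used here. No genetic change separates the groups, and the results describe a single cell line that carries the BCR::ABL fusion. The labels do not say whether the replicates came from separate cultures, so the p-values measure only the spread between these libraries, which may be technical. The study compared the groups to learn how hyperoside acts on CML cells.

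ATF4 is a transcription factor whose protein is made when the initiation factor eIF2alpha is phosphorylated by kinases that sense amino acid shortage, endoplasmic reticulum stress, heme shortage or double-stranded RNA. It belongs to the bZIP family, whose members grip DNA through a basic region and pair through a leucine zipper, so that the partner decides much of what is bound. ATF4 raises genes for amino acid synthesis and uptake, and also DDIT3, TRIB3 and SESN2, some of which then restrain the response. The RNA level measured here does not show how much ATF4 protein was present.

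The libraries held 35613283 to 36754725 counts on genes. Values are given as normalized CPM, that is, counts scaled to the library total and to edgeR's TMM factor. An adjusted p is the Benjamini-Hochberg value of edgeR's quasi-likelihood test over 15095 genes. Control replicate 1 stood somewhat apart, with a chi-square per degree of freedom of 21.3 and 24.4 against the other control libraries, which differed from each other by 6.46. In the hyperoside group replicate 2 differed by 10.9 and 14.0 from replicates 1 and 3, which differed from each other by 7.57. All 10 listed erythroid markers of K562 cells were above 1 CPM in mean, while the osteoblast markers, listed because the labels give bone as the tissue, summed to at most 12.5 CPM in a library, with 3 of the 6 in the table above 1 CPM. Of the megakaryocytic markers, listed because Meg-01 cells were also used in the study, ITGA2B was the sole one above 1 CPM, and GP1BA had no count. The erythroid markers summed to 5048 to 6502 CPM in the control group and 3718 to 4510 in the hyperoside group, most of it from the globin genes HBE1, HBG2 and HBG1. These 3 genes were lower, while KLF1, LMO2 and EPOR were higher and GATA1, TAL1 and HBZ were not called. The monocyte list summed to 51.5 to 55.6 and 73.7 to 78.6 CPM, nearly all of it from LYZ. The T cell list summed to 29.4 to 36.7 and 40.0 to 44.8 CPM, nearly all from CD3D, with CD3E and CD2 below 1 CPM in each library. Of the 3 T cell markers tested, 2 were higher at an adjusted p under 0.05, against 22.1% of all tested genes. The B cell list stayed at or below 3.64 CPM in every library. Mitochondrial genes held 4.39 to 5.11% of counts in the control group and 5.59 to 6.17% in the hyperoside group. The part of these differences in the results was not tested.

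At an adjusted p under 0.05, 9 of the 10 genes were lower in the hyperoside group, against 23.2% of all tested genes, and NUPR1 was higher, against 22.1%. A fall of more than 2-fold at the same adjusted p was found for 7 of the 10 genes, against 3.76% of all tested genes. The 10 genes were chosen with earlier results of these data known, so these counts are no independent evidence of a direction. NUPR1 did not reach a 2-fold rise, which 6.43% of all tested genes did. Over the 10 genes the log2 fold change had a median of -1.36, beside 0.0032 over all tested genes. ATF5 had the largest fall and CEBPB the smallest of the 9 lower genes. In bulk RNA a lower level in every cell and fewer cells with the transcript cannot be told apart. For the 9 lower genes the groups did not overlap, which was the case in this direction for 27.3% of all tested genes, and for NUPR1 they overlapped, while 27.1% of all tested genes were higher without overlap.

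**Figure D1:**
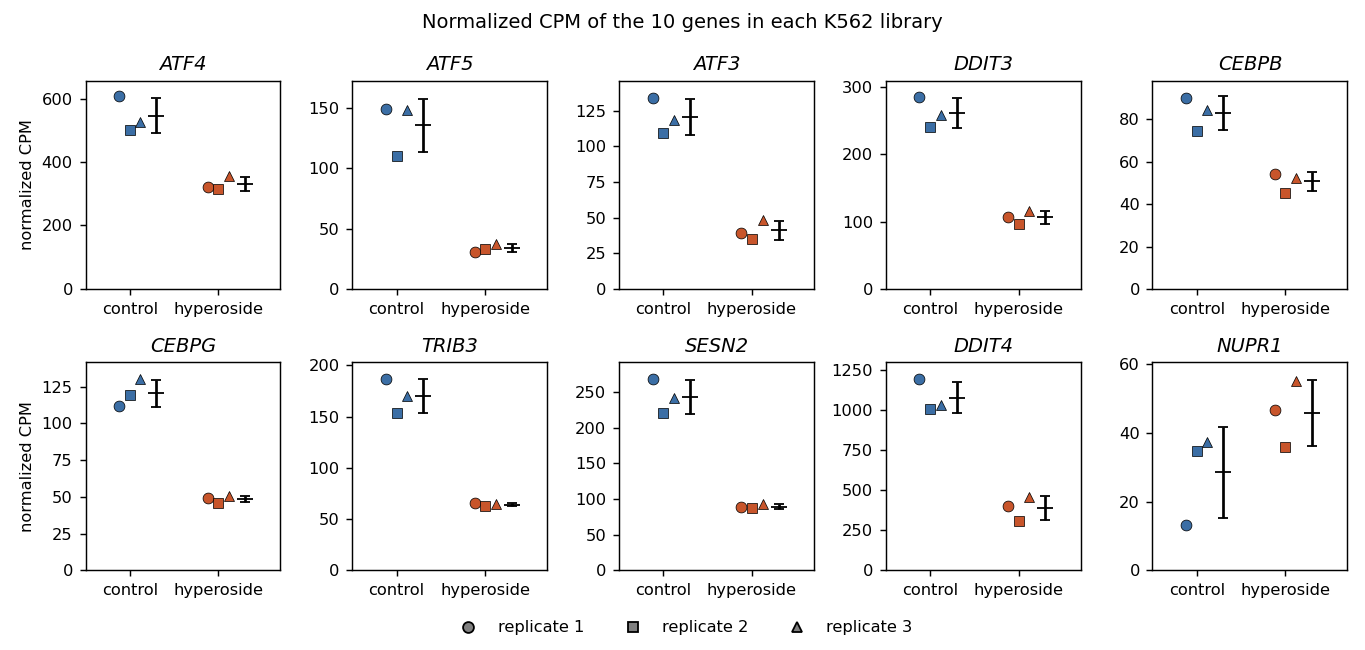
Normalized CPM (vertical axis, linear from 0) of the 10 genes in the 3 control and 3 hyperoside libraries, with marker shape giving the replicate and the bar at the right of each group the mean and SD. In 9 panels every hyperoside point lies under every control point, and in the NUPR1 panel hyperoside replicate 2 at 36.0 CPM lies under control replicate 3 at 37.5 CPM.

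ATF4 had 609.1, 502.4 and 527.1 CPM in control replicates 1, 2 and 3, and 322.6, 314.5 and 355.4 CPM in hyperoside replicates 1, 2 and 3. The lowest control library thus stood 147.1 CPM above the highest hyperoside library. The means were 546.2 ± 55.8 and 330.8 ± 21.6 CPM (SD, n = 3 each), or 60.6% of the control level. The log2 fold change was -0.72 (standard error 0.08, edgeR adjusted p = 1.02e-06), which did not reach 2-fold. Of all tested genes, 8.61% had a log2 fold change as low as that of ATF4 or lower.

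DDIT3 encodes CHOP, a bZIP protein that pairs with C/EBP factors and with ATF4 and is known for its part in cell death under lasting endoplasmic reticulum stress. Its control libraries had 284.6, 240.8 and 258.5 CPM and its hyperoside libraries 106.7, 97.0 and 115.5 CPM. The groups were far apart, with each hyperoside value under the lowest control value by more than 125 CPM. It kept 40.7% of its control mean, and its log2 fold change was -1.30 (standard error 0.08, edgeR adjusted p = 2.11e-09). In the GENCODE 29 annotation its exons overlap AC022506.1 on the same strand and MARS1 and MBD6 on the opposite strand, and the use of strand in the counting is not given in the sources used here. The annotation used for the counting is not given either, and in RefSeq positions MBD6 lies 197 bases from DDIT3. Strand cannot separate reads from an overlap with AC022506.1, nor reads from MARS1 or MBD6 if strand was ignored. Whether any such reads entered the DDIT3 counts was not tested. MARS1, the methionyl-tRNA synthetase gene, fell from a mean of 360.9 to 230.8 CPM, a log2 fold change of -0.64 (edgeR adjusted p = 1.55e-06), whereas MBD6 rose from 47.7 to 56.2 CPM, a log2 fold change of 0.24 (edgeR adjusted p = 0.0346).

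CEBPB and CEBPG encode C/EBP factors. CEBPB is a regulator of myeloid and inflammatory genes, and CEBPG, which lacks an activation domain of its own, is known as a dimer partner of ATF4 in the amino acid response. CEBPB had 90.3, 74.3 and 84.4 CPM in the control libraries and 54.4, 45.4 and 52.3 CPM in the hyperoside libraries. Its gap between the groups, 19.9 CPM, was the smallest of the 9 lower genes, and its log2 fold change was -0.71 (standard error 0.09, edgeR adjusted p = 7.31e-06). CEBPG had 111.9, 119.02 and 130.5 CPM in the control libraries and 49.3, 46.0 and 50.4 CPM in the hyperoside libraries. The 3 hyperoside libraries of CEBPG were closely grouped, with a coefficient of variation of 4.71%, and stood at 40.3% of the control mean. For CEBPG the log2 fold change was -1.31 (standard error 0.08, edgeR adjusted p = 1.56e-09). The antisense gene CEBPB-AS1 overlaps CEBPB and was near 2 CPM in both groups.

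ATF3 is a bZIP factor of the immediate stress response that often represses its targets, and ATF5 is a close relative of ATF4 known for the mitochondrial stress response. ATF3 had 133.8, 109.2 and 118.2 CPM in the control libraries and 39.5, 35.1 and 48.6 CPM in the hyperoside libraries. The hyperoside libraries of ATF3 varied more than those of most of the group, with a coefficient of variation of 16.8%, and its log2 fold change was -1.55 (standard error 0.11, edgeR adjusted p = 4.88e-09). ATF5 had 148.8, 110.2 and 147.9 CPM in the control libraries and 30.5, 33.4 and 37.5 CPM in the hyperoside libraries. Control replicate 2 was low for ATF5, but it still stood 72.7 CPM above the highest hyperoside library. ATF5 kept 24.9% of its control mean and was 4.01-fold lower (standard error 0.11 on the log2 scale, edgeR adjusted p = 3.13e-10), and 0.669% of all tested genes had a log2 fold change as low or lower. Exons of ATF5 overlap IL4I1 and NUP62 on the opposite strand and a microRNA gene on its own strand. NUP62, a nuclear pore gene, rose from 86.1 to 105.5 CPM, a log2 fold change of 0.29 (edgeR adjusted p = 0.00882).

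ATF4 and its C/EBP partners bind C/EBP-ATF response elements, whose core was searched on both strands as TGATGNAA, with N for any base, in the 250 bases before and 50 bases after each RefSeq transcript start (GRCh38.p14). For 9 of the 10 genes the RefSeq promoter table holds 18 such windows, many of them overlapping, and 2 of these windows held the core, in ATF3 and CEBPG. Of all 35116 windows in the table, 3.62% held it. Both windows are shown because they hold the core next to a start of a gene that fell, with the core in capitals, 5′ to 3′ on the plus strand. The ATF3 window is chr1:212565157-212565456 and its core begins 191 bases before the start. The CEBPG window is chr19:33373863-33374162 and its core begins 42 bases before the start.
ATF3: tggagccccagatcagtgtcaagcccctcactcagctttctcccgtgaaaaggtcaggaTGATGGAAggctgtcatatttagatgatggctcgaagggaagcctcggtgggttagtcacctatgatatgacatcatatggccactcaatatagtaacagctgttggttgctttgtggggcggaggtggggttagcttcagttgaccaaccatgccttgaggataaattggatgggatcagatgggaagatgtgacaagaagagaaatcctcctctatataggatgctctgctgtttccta
CEBPG: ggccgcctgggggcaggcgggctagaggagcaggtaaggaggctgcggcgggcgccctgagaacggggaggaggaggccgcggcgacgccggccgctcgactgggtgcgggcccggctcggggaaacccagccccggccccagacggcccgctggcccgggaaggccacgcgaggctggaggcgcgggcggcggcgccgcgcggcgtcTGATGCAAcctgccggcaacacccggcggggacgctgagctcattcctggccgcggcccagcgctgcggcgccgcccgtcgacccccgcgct
The full CRE palindrome TGACGTCA was in none of the 18 windows and in 1.85% of all windows. The shorter TGACG, which is part of that palindrome, was in 4 of the 18, in windows of ATF4, ATF5 and CEBPB, and in 24.6% of all windows. A match of this kind is a description of the letters in a window and not a bound site, and elements farther away would not be seen.

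TRIB3 is a pseudokinase that binds ATF4 and CHOP and damps their activity. It had 186.9, 153.7 and 170.4 CPM in the control libraries and 65.3, 62.4 and 64.7 CPM in the hyperoside libraries. The hyperoside libraries of TRIB3 were the most uniform of the group, with a coefficient of variation of 2.42%. Its log2 fold change was -1.41 (standard error 0.08, edgeR adjusted p = 5.57e-10).

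SESN2 and DDIT4 both restrain mTORC1, the growth kinase complex, SESN2 as a leucine-sensing sestrin and DDIT4, also named REDD1, through the TSC complex. SESN2 had 268.4, 220.2 and 241.2 CPM in the control libraries and 88.3, 87.1 and 93.3 CPM in the hyperoside libraries. All hyperoside libraries were within 1.07-fold of each other, and the log2 fold change of SESN2 was -1.44 (standard error 0.08, edgeR adjusted p = 3.54e-10). DDIT4 was the most abundant of the 10 genes in CPM, with 1194, 1012 and 1036 in the control libraries and 401.5, 307.2 and 457.3 in the hyperoside libraries. Hyperoside replicate 2 was the lowest, and the hyperoside libraries of DDIT4 spanned 1.49-fold, against 1.18-fold in the control group. DDIT4 kept 36.0% of its control mean, and the log2 fold change was -1.48 (standard error 0.11, edgeR adjusted p = 9.83e-09). Its exons overlap DDIT4-AS1 on the opposite strand.

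NUPR1 encodes a small chromatin-associated stress protein that ATF4 is known to induce, and it was the exception in the group. It had 13.2, 34.9 and 37.5 CPM in the control libraries and 46.6, 36.0 and 55.1 CPM in the hyperoside libraries. Control replicate 1, with 465 counts, stood apart from control replicates 2 and 3, with 1227 and 1340 counts. The groups overlapped, since hyperoside replicate 2 was under control replicate 3. NUPR1 averaged 28.5 ± 13.3 CPM in the control group and 45.9 ± 9.58 CPM in the hyperoside group (SD, n = 3 each). Its log2 fold change was 0.69 (standard error 0.24, 95% interval 0.18 to 1.19, edgeR adjusted p = 0.0273). Without control replicate 1 the log2 fold change was 0.35 (edgeR adjusted p = 0.0137). The call was lost without hyperoside replicate 3 (log2 fold change 0.54, edgeR adjusted p = 0.152) and without hyperoside replicate 1 (0.68, edgeR adjusted p = 0.0687). It was also lost with DESeq2's Wald test (0.69, adjusted p = 0.265), the largest adjusted p of all 15 alternatives. The smallest, 1.79e-09, came from edgeR with no filter on low counts, a fit that gave 2.64e-83 for ATF5. The next smallest was 0.00399, from an edgeR fit with a term for the replicate number.

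**Figure D2:**
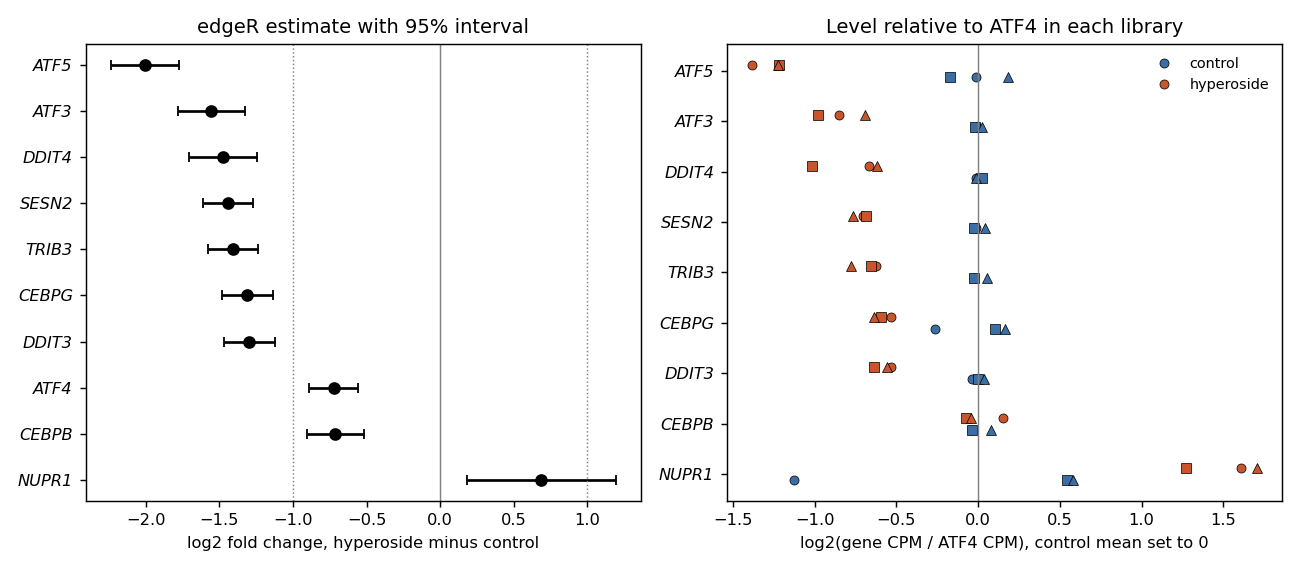
Left, log2 fold change of the 10 genes (horizontal axis, hyperoside minus control) with the 95% interval from edgeR and dotted lines at 2-fold. Right, log2 ratio of each gene's CPM to that of ATF4 in every library, with the control mean set to 0, blue for control, orange for hyperoside and marker shape for replicates 1 (circle), 2 (square) and 3 (triangle). In the left panel ATF5 lies farthest to the left, ATF4 lies at -0.72 and CEBPB at -0.71, and in the right panel CEBPB alone has overlapping groups.

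The size of the fall was compared between genes by the log2 ratio of each gene's CPM to that of ATF4 in the same library. All these ratios rest on the ATF4 counts, and what stretch those counts cover is uncertain, as the comparison of lengths below shows. In 7 of the 9 ratios the hyperoside libraries lay under all control libraries, as was the case for 2.84% of the 15094 other tested genes. The ratio of DDIT3 to ATF4 was -1.10, -1.06 and -1.03 on the log2 scale in the control libraries and -1.60, -1.70 and -1.62 in the hyperoside libraries, a difference of -0.58. For SESN2 the difference was -0.72, for TRIB3 -0.68, for CEBPG -0.59, for DDIT4 -0.77, for ATF3 -0.84 and for ATF5 -1.28. The ratio of CEBPB to ATF4 overlapped between the groups, with a difference of 0.0099 and control and hyperoside SDs of 0.07 and 0.12, so that a difference between both genes was not detectable with these libraries. NUPR1 moved up against ATF4 in every hyperoside library, by 1.53 in the mean. Its control ratios were -5.53, -3.85 and -3.81 (SD 0.98), so that control replicate 1 enlarges this mean difference. Likewise higher against ATF4 without overlap were 74.3% of the other tested genes. In both directions together 8 of the 9 ratios had no overlap, a share near the 77.1% over the other tested genes and thus no result about these genes. By an exact permutation test, two-sided, each of the 8 ratios without overlap gave p = 0.1, which is the smallest value possible with 3 libraries against 3, and 0.113 after Benjamini-Hochberg adjustment over the 9 ratios. The test can therefore not reach 0.05 here.

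Replicates of a group shared some of their deviations across the 10 genes. The matching shares over all tested genes were not computed, so these counts describe the libraries and are no result about the 10 genes. In the control group 8 of the 10 genes were highest in replicate 1 and 8 were lowest in replicate 2, and NUPR1 and CEBPG were lowest in replicate 1. In the hyperoside group 9 of the 10 genes were lowest in replicate 2, the exception being ATF5. The coefficient of variation of the 9 lower genes was 7.80 to 16.3% in the control group and 2.42 to 19.5% in the hyperoside group. For NUPR1 it was 46.7% and 20.9%.

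Levels of different genes were compared in the deposited FPKM values, which are scaled to gene length. In the control group DDIT4 stood highest at 608.0 ± 42.0 FPKM, followed by DDIT3 at 217.8 ± 14.7 (SD, n = 3 each). ATF4 at 69.5 and SESN2 at 69.0 FPKM overlapped, and so did each neighbouring pair in the run of TRIB3 at 54.1, ATF5 at 48.2, ATF3 at 41.2 and CEBPB at 38.7 FPKM. CEBPG at 27.6 and NUPR1 at 5.28 FPKM stood below these without overlap. In the hyperoside group DDIT4 at 226.5, DDIT3 at 91.8 and ATF4 at 43.6 FPKM kept their places, CEBPB moved from place 8 to place 5 at 24.5 FPKM, and NUPR1 remained last at 8.73 FPKM. The place of ATF4 depends on a gene length that is hard to place. Its counts and FPKM values imply a length of 7716 bases in every library, whereas the gene spans 2128 bases in RefSeq and its exons cover 2514 bases in GENCODE 29. With the GENCODE length, ATF4 would average 213.2 FPKM in the control group and 133.8 FPKM in the hyperoside group, and DDIT3 196.3 and 82.8 FPKM. For the other 9 genes the implied lengths were 1178 to 5345 bases, no longer than their RefSeq spans. Whether the ATF4 counts hold reads from outside the RefSeq span was not tested. The fold change of ATF4 and the ratios to it do not use the length. Any such reads would still be part of the counts behind them.

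The genes lie apart in the genome and their neighbours were read as a check on position. ATF4 is on chromosome 22 from 39520559 to 39522686, DDIT3 on chromosome 12 from 57516588 to 57520517, ATF5 on chromosome 19 from 49928906 to 49933935, CEBPG on chromosome 19 from 33373709 to 33382686 and NUPR1 on chromosome 16 from 28532708 to 28538974, in RefSeq coordinates of GRCh38.p14. Of the 20 nearest tested genes, 1 on each side of each gene, 8 were higher, 6 lower and 6 not called. Their median was 0.20 on the log2 scale. Over all tested genes 22.1% were higher and 23.2% lower. The neighbours of ATF4 were MIEF1, 2426 bases away with a log2 fold change of 0.31, and RPS19BP1, 6406 bases away with -0.27. Both neighbours of NUPR1 were higher. APOBR, a lipoprotein receptor gene 33743 bases away, had a log2 fold change of 1.93 (edgeR adjusted p = 1.67e-11) and SGF29, 14945 bases away, one of 0.75 (edgeR adjusted p = 8.04e-05). For ATF3, the bZIP gene BATF3 65639 bases away was lower at a very low level, 0.93 CPM in the control mean and 0.22 CPM in the hyperoside mean, with a log2 fold change of -2.07 (edgeR adjusted p = 0.00661).

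Translation of several of these genes is known to be set by short reading frames ahead of the main one, which RNA levels do not show. In 1 GENCODE 29 transcript per gene, the shortest of the best APPRIS rank, an ATG stood ahead of the main start in 8 of the 10 genes and in 47.4% of 19540 protein-coding genes. ATF4 had 3 of them in a leader of 280 bases, with frames of 1, 3 and 59 codons, and the last frame ran 83 bases into the coding sequence. ATF5 had 6 in a leader of 582 bases, the last again with 59 codons and running 56 bases into the coding sequence. In the leaders of CEBPB and DDIT4 there was no ATG. These counts depend on the transcript chosen, and a rule that took the longest transcript was set aside because it picked an ATF4 transcript with an unspliced leader.

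Profiles most like that of ATF4 were sought among 9758 genes with a mean log2 CPM of at least 3, by the root mean square over the 6 libraries of the difference in log2 CPM (with 0.5 added to CPM) after the control mean was subtracted. Among the nearest were COPZ1 (0.042), DPH7 (0.045), ANKRD9 (0.047) and FAM193B (0.052), while CEBPB lay at 0.080 from ATF4. Nearest to DDIT3 were PSRC1 (0.039), B4GALNT4 (0.078), KIF5A (0.080), GRB7 (0.090) and MEX3B (0.091). KIF5A, a kinesin gene, lies 29526 bases from DDIT3 on chromosome 12, and the other 4 lie on other chromosomes. With 6 libraries in 2 groups the measure is led by the difference between the groups.

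The rest of the bZIP family was read from a list of 47 further genes, of which 45 were tested. Of these, 15 were lower and 16 higher, against 23.2% and 22.1% of all tested genes. The median was 0.092 on the log2 scale, so that the list was spread over both directions. Smallest in adjusted p among the lower genes were MAFG, a small MAF partner of NRF2, with a log2 fold change of -0.59, JDP2, a close relative of ATF3, with -1.26, and NFE2L2, which encodes NRF2, with -0.52 (edgeR adjusted p = 4.31e-06, 2.22e-05 and 2.46e-05). Among the higher genes they were CEBPE, a C/EBP factor of granulocyte maturation, and the AP-1 genes FOSL2 and FOSL1. CEBPE averaged 0.981 ± 0.0737 CPM in the control and 13.0 ± 1.45 CPM in the hyperoside libraries (SD, n = 3 each). Its rise on the log2 scale was 3.73 (standard error 0.19, edgeR adjusted p = 9.20e-11), and thus in the opposite direction to CEBPB and CEBPG. FOSL2 had a log2 fold change of 1.90 (edgeR adjusted p = 3.74e-08) and FOSL1 one of 1.75 (edgeR adjusted p = 5.18e-08).

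**Figure D3:**
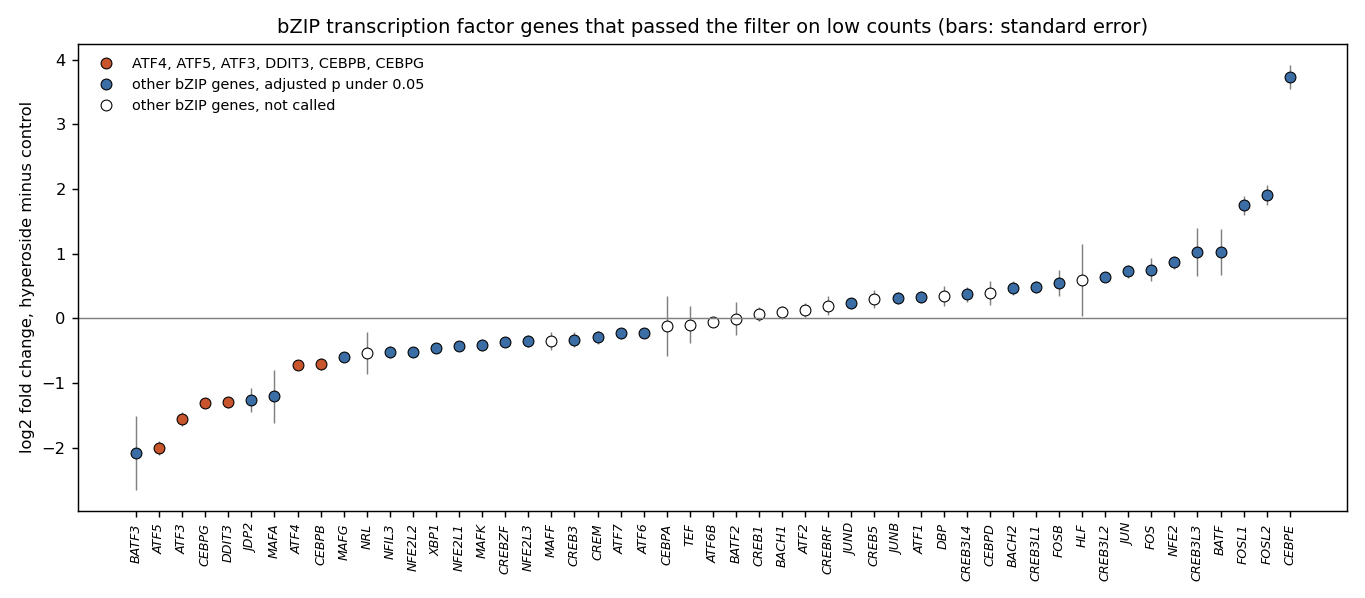
Log2 fold change (vertical axis, hyperoside minus control) of the 51 tested bZIP genes in order, with bars for the standard error from edgeR. The 6 factors followed here (orange) all lie at -0.71 or lower, and CEBPE lies highest at 3.73.

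Relatives of the regulators moved in both directions. TRIB1, a pseudokinase relative of TRIB3, averaged 14.7 ± 0.407 CPM in the control and 25.4 ± 1.81 CPM in the hyperoside libraries (SD, n = 3 each), with a log2 fold change of 0.79 (edgeR adjusted p = 8.09e-06). TRIB2 had a log2 fold change of 0.10 (edgeR adjusted p = 0.317) and SESN1 one of -0.22 (edgeR adjusted p = 0.0863), neither past the test. SESN3 fell by 0.32 on the log2 scale (edgeR adjusted p = 0.0352), with overlapping groups. DDIT4L was under the filter on low counts.

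Upstream of ATF4, the 4 eIF2alpha kinases and the subunits that remove the phosphate were measured. EIF2AK1, the heme-sensing kinase HRI, had a log2 fold change of -0.35 (edgeR adjusted p = 5.81e-04), and EIF2AK4, the amino acid-sensing kinase GCN2, one of -0.29 (edgeR adjusted p = 0.00306). EIF2AK3, the endoplasmic reticulum kinase PERK, had 0.19 and EIF2AK2, the double-stranded RNA kinase PKR, had 0.17, and neither passed the test (edgeR adjusted p = 0.130 and 0.159). EIF2S1, which encodes eIF2alpha itself, fell by 0.20 on the log2 scale (edgeR adjusted p = 0.0457), with overlapping groups. The phosphatase subunit PPP1R15B was lower by -0.47 (edgeR adjusted p = 4.80e-05), while PPP1R15A, which encodes GADD34 and is itself known to be induced by CHOP, had 300.3 ± 12.8 and 318.7 ± 25.6 CPM (SD, n = 3 each) and a log2 fold change of 0.09 (edgeR adjusted p = 0.363). All 7 of these genes changed by less than 2-fold.

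Downstream, a list of 33 ATF4 target genes outside the 10 had 31 tested members. There 28 were lower and 2 higher, and the median was -0.81 on the log2 scale. Over all tested genes 23.2% were lower and 22.1% higher. The list was written with an earlier result on such targets known, so the count is no independent evidence of a direction. The same limit holds for every other list here, as all were chosen with earlier results of these data known. CHAC1, a glutathione-degrading enzyme, had a log2 fold change of -3.41, PSAT1, of serine synthesis, one of -1.89, and STC2, a secreted glycoprotein gene, one of -3.33 (edgeR adjusted p = 3.21e-12, 2.27e-11 and 9.95e-11). The 2 higher genes were SLC3A2, the heavy chain of amino acid exchangers, at 0.30, and GDF15, a stress cytokine, at 0.46 (edgeR adjusted p = 0.00618 and 0.00258). For GDF15 the groups overlapped. Among 9 tested CHOP targets, 6 were lower and ERO1A, an oxidase of the endoplasmic reticulum, was higher with a log2 fold change of 0.70 (edgeR adjusted p = 2.81e-06). The lower ones besides CHAC1 included WARS1 at -1.08 and the death receptor gene TNFRSF10B at -1.07 (edgeR adjusted p = 1.75e-09 and 1.46e-08). CHAC1 and WARS1 stand in both lists.

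Neighbouring stress programs were read in the same way and with the same limit on the choice of lists. Their counts stand beside 23.2% lower and 22.1% higher over all tested genes. Of 18 tested genes of the ATF6 and XBP1 arms of the unfolded protein response, 16 were lower and the median was -0.87 on the log2 scale. HERPUD1, of endoplasmic reticulum-associated degradation, fell from a mean of 178.7 ± 23.3 to one of 38.4 ± 5.42 CPM (SD, n = 3 each). The chaperone genes HSPA5 and HSP90B1 had log2 fold changes of -2.42 and -2.08. Of 10 tested mitochondrial stress genes, among them reported targets of ATF5, 7 were lower and GDF15 was higher, with a median of -0.26. LONP1, a mitochondrial protease, had a log2 fold change of -0.39, HSPA9, a mitochondrial chaperone, one of -0.27, and HSPE1, a cochaperone, one of -0.43 (edgeR adjusted p = 6.09e-04, 0.00235 and 0.00328). DDIT4 is also a known hypoxia gene, and SESN2 and DDIT4 are known p53 targets. Of 13 hypoxia genes 8 were higher, BNIP3 was lower and 4 were not called, with a median of 0.36. DDIT4 was lower, and the cause of its fall was not tested. EGLN3 at 1.17, ADM at 2.06 and NDRG1 at 0.76 were the higher ones with the smallest adjusted p (edgeR adjusted p = 1.57e-08, 2.51e-07 and 4.31e-06), and BNIP3 had -0.27 (edgeR adjusted p = 0.0076). Of 12 p53 targets 3 were lower and 4 higher, not far from the shares over all tested genes, with a median of -0.041. BBC3 at -0.72, GADD45A at -0.31 and FDXR at -0.30 were lower, and BTG2 at 0.80, TP53I3 at 1.29 and MDM2 at 0.62 led the higher ones.

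**Figure D4:**
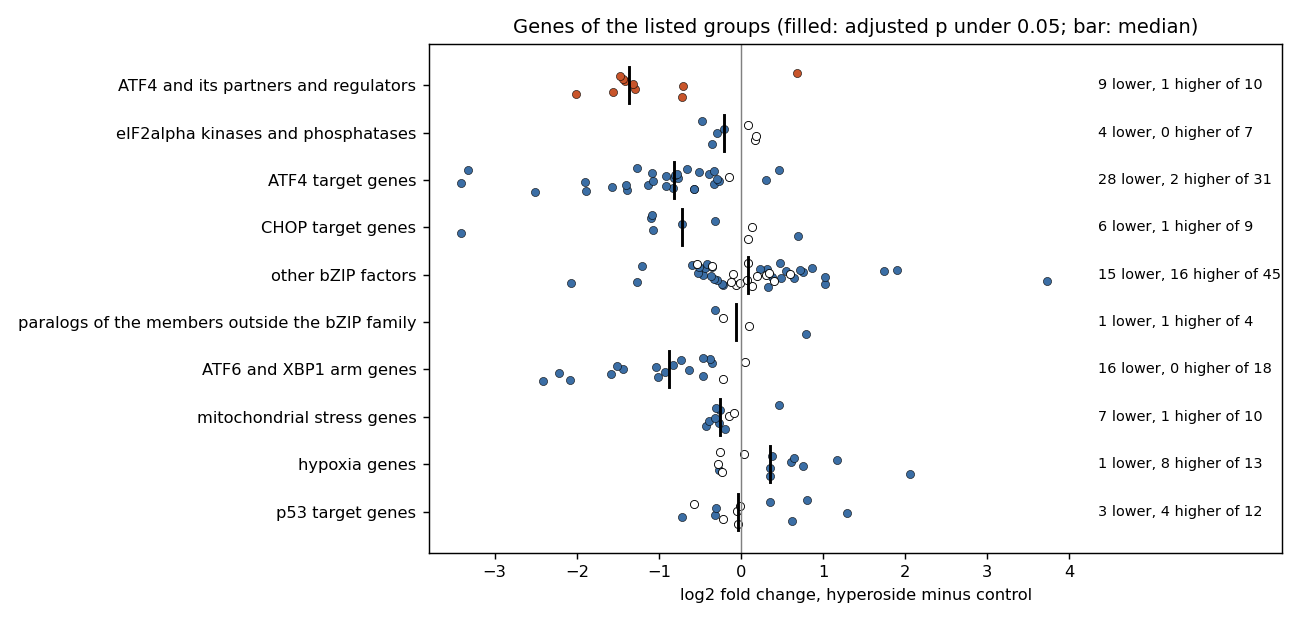
Log2 fold change (horizontal axis, hyperoside minus control) of the tested genes of each group, filled where the edgeR adjusted p was under 0.05, with a black bar at the median and the counts of lower and higher genes at the right. The 10 genes followed here (orange) have a median of -1.36, the other bZIP factors one of 0.092 and the hypoxia genes one of 0.36.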

How the data were processed

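RNA of K562 cells was measured in 6 libraries, 3 per group, grouped by the sample titles. The authors deposited raw counts per gene and FPKM values, in which counts are divided by the length of the gene and the total of the library. The submitters' processing notes name fastp, HISAT2 and HTSeq with the hg38 build, and versions, annotation and strand setting are not given in the sources used here. The main test was run on the counts in edgeR 4.0.16 under R 4.3.3 (filterByExpr with a minimum count of 10 and a minimum total of 15, TMM, quasi-likelihood test, condition as the only term). Of 24960 genes 15095 were tested. Standard errors were derived from the log2 fold change and the F statistic. DESeq2 1.42.0, limma 3.58.1, other scalings, other filters, FPKM with 1 or 0.1 added, leaving out each library and a replicate block served as alternatives. Ratios were tested in scipy 1.17.1, and positions, promoters and transcripts came from RefSeq GRCh38.p14 and GENCODE 29. The study's methods name DESeq, which was not used. The fits were tested on simulated counts. The 10 genes and all lists were chosen with earlier results of these data known. Named from each list were the 3 called genes per direction that had the smallest adjusted p, and all genes where a list held 7 or fewer. Genes near a member and overlapping genes were named by position. Some genes that the rules on named genes and markers take are not reported here.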

Additional observations from a re-analysis of the deposited data

How the results depend on the processing

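The 9 lower genes stayed lower, with adjusted p below 0.05, under each of the 15 alternatives, and the number lower by more than 2-fold was 7 under each. The number of genes called higher, 1 by edgeR, was 0 with DESeq2's Wald test and with limma-trend on log2(FPKM + 1) and on log2(FPKM + 0.1), and 0 to 1 when 1 library was left out, NUPR1 being the gene in question. Its unadjusted p was 0.149 with DESeq2, and 0.0463 and 0.042 with limma-trend after adding 1 and 0.1 to FPKM. The cause was not tested. The number of ratios to ATF4 without overlap was 8 to 9 of 9 when 1 library was left out, beside 79.7 to 84.1% of the other tested genes. Over all tested genes 2858 to 3618 were lower and 2700 to 3549 higher when 1 library was left out. With a replicate block in edgeR, 9 of the 10 genes were lower and 1 was higher, and over all tested genes 3103 were lower and 3026 higher. Deviations of same-numbered libraries correlated at -0.151, -0.035 and -0.024 across genes, and none of the libraries correlated best with the one of its own number, so the numbers were not taken to pair the libraries. Control replicate 1 differed most from its group. Depth was similar in all libraries and was not the limit for the genes followed here, the lowest count among them being 465.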
